A study of Mus musculus with 22 samples.

Results

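The right ventricle (RV) of banded neonatal mice was compared with the RV of sham-operated mice across all genes with a mean of at least 10 normalized counts. The samples were chosen by their labels: 6 RV libraries labelled nPAB and 5 labelled Sham, which are 11 of the 22 libraries of the series. The genes were chosen by their mean over these 11 libraries, which kept 13660 of the 49670 genes in the RV table. Neonatal pulmonary artery banding (nPAB) ties a band around the vessel that carries blood out of the RV and so raises the pressure against which that chamber ejects. The operation, with a 30G needle, or a sham operation was done on postnatal day 1 in CD1 mice, an outbred strain for which the labels name no transgene or deletion. Hearts were taken 7 days after surgery, so banded and control mice were of the same age. Each library held RNA of a whole ventricle (the labels give the cell type as bulk), and all carried batch label 1. Cardiomyocytes, fibroblasts, vessel cells and blood therefore contributed together, and fewer cells of a type and less RNA per cell cannot be told apart in any result below. Nothing in the labels says that the mice came from separate litters, so the p-values measure the spread between these mice.

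Around birth the RV goes from working against the high resistance of the fetal lung to ejecting into a low-pressure circuit, while the newborn heart turns from glucose and lactate toward fatty acids and completes its calcium-cycling and electrical machinery. A ventricle whose outflow is narrowed is known to enlarge its muscle cells, to express natriuretic peptides and actin isoforms of the fetal heart again, and to change its fuel use. In the mouse this falls in the same days in which cardiomyocytes stop dividing, so that genes of load and genes of maturation are measured together.

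Recovered whole reads numbered 7.43 to 10.7 M per RV library, and all 22 contractile and cardiomyocyte identity genes of the list used here passed the filter on low values. By Xist and Ddx3y, 3 of the 5 Sham and 3 of the 6 nPAB RV libraries were male. The RV and LV libraries of nPAB mice 6 and 7 carried different sexes under 1 mouse number, so at least 1 library of each number went against its label. Without these 2 mice 1439 genes rose and 1359 fell, against 1519 and 1480 with them. Among genes called at 2-fold or more, the RV library of nPAB mouse 7 lay nearest to Sham, with a median log2 distance from the Sham mean of 1.18 for the genes that rose, where the other 5 nPAB libraries lay between 1.45 and 1.80. Those genes were called with the same libraries, so these distances are a description.

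Banding was followed by broad change in the RV transcriptome. Of the 13660 genes tested with limma, 2999 (22.0%) passed at a Benjamini-Hochberg adjusted p under 0.05, of which 1519 (11.1%) rose and 1480 (10.8%) fell, and the median log2 fold change of all genes was 0.00. Changes of at least 2-fold numbered 390 rises (2.86%) and 359 falls (2.63%). The tails were unequal: 34 genes rose by at least 3 on the log2 scale and 14 fell by as much, while 12 rose and 0 fell by at least 4. The groups' libraries did not overlap in 1672 of the called genes (12.2% of those tested). The filter admitted 213 genes with a Sham mean under 10, 74 of them called as rises, and 301 genes with an nPAB mean under 10, 99 of them called as falls. Such genes passed the filter only through the group in which they were high. At its edge, the coding gene Pdzrn4 lay just inside with a mean of 10.02 (17.2 in Sham and 4.02 in nPAB) and Tll1 just outside with 9.998 (14.5 and 6.28). Those edge genes were chosen for their means.

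**Figure D1:**
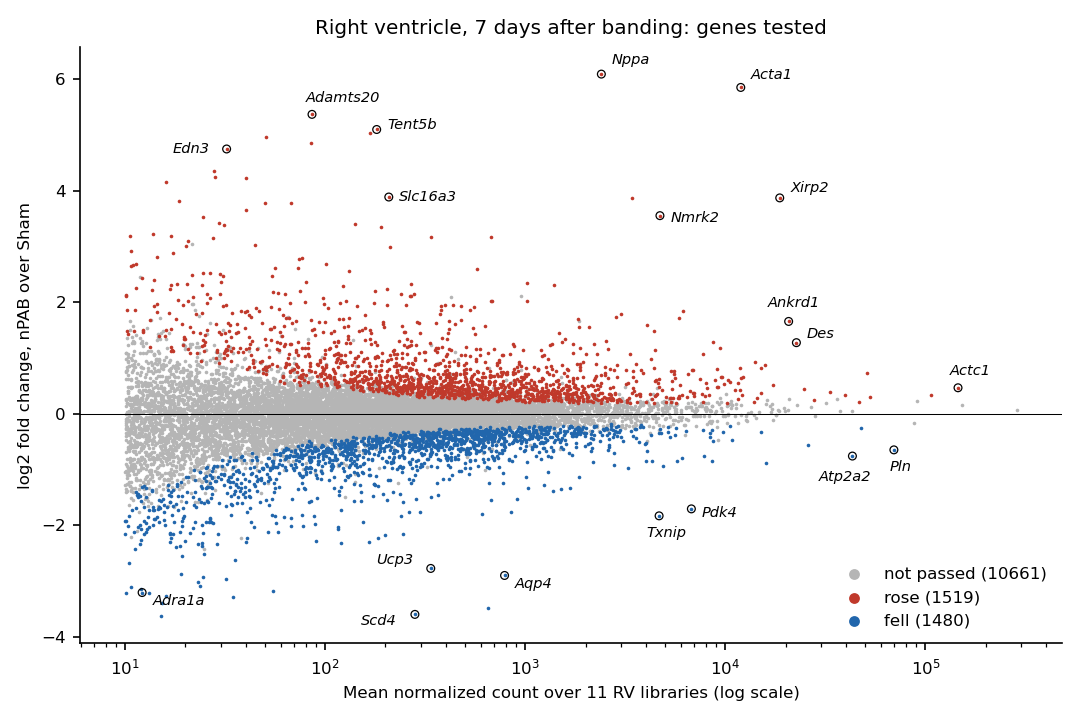
Each point is 1 of 13660 genes, placed by its mean normalized count over the 11 RV libraries (log axis) and its log2 fold change of nPAB over Sham, with the genes that rose (1519) in red and fell (1480) in blue. The highest points reach 6.09 (Nppa) and 5.86 (Acta1), while abundant genes such as Actc1, Pln and Atp2a2 lie within 1 log2 unit of 0.

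The 2 largest rises were those of Nppa, the gene of atrial natriuretic peptide, and Acta1, the actin of skeletal muscle that the fetal heart also makes. Nppa stood at 42.5, 77.8, 51.6, 22.4 and 117 normalized counts in Sham mice 9 to 13 and ran from 1324 to 7827 with a median of 3798 in nPAB. Acta1 stood at 269.8, 853, 259.6, 270.4 and 286 in Sham, with mouse 10 far above the other 4, and ran from 7897 to 32729 with a median of 22272 in nPAB. For both genes every banded library lay above every Sham library, including Sham mouse 10 for Acta1. The log2 fold changes were 6.09 ± 0.54 SE (adjusted p = 6.59e-05) for Nppa and 5.86 ± 0.43 SE (adjusted p = 2.25e-05) for Acta1. Slc16a3, which exports lactate from the cell, was among the genes with the smallest p. It stood at 17, 21.9, 18.3, 23.3 and 30.5 in Sham and ran from 205 to 665 with a median of 309 in nPAB (log2 fold change 3.89 ± 0.25 SE, adjusted p = 7.85e-08), so its groups lay well apart with a narrow Sham range.

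The sequences before the start sites of 4 genes at the extremes are shown here because textbook elements of load, hypoxia and fat sensing can be looked for in them. They are the bases before the RefSeq start in build GRCm38.p6, read 5′ to 3′ on the gene's strand, with only the matches named for each gene in capitals, so that matches to the other motifs below are not marked. Acta1 (chr8:123894776-123895025, minus strand) carries in capitals a CArG box, the letters that serum response factor binds, and CATTCC, the M-CAT element read by TEAD factors. Xirp2 (chr2:67445752-67446001, plus strand), which encodes a protein that binds actin at the disc between muscle cells, carries a match to the MEF2 site. Slc16a3 (chr11:120948817-120949052, plus strand, ending 15 bases before the start because a GENCODE exon begins there) carries ACGTG, a form of the core of the hypoxia response element. Another ACGTG, 14 to 10 bases before the start, lies in the part not printed. The RefSeq start of Slc16a3 lies 587 bases from its GENCODE start, so which bases are its promoter is uncertain. Ucp3 (chr7:100472741-100472989, plus strand), a mitochondrial carrier tied to fatty acid use, carries AGGTCA, the hexamer of PPAR and other nuclear receptors, at 2 places.
Acta1: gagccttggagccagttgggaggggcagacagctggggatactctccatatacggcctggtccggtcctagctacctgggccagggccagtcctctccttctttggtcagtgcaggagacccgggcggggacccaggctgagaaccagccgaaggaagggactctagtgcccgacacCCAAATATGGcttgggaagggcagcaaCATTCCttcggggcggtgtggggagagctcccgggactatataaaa
Xirp2: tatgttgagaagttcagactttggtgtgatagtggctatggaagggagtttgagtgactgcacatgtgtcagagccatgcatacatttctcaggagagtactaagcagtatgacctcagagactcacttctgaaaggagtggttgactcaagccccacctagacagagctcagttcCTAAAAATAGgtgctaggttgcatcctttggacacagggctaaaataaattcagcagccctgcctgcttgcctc
Slc16a3: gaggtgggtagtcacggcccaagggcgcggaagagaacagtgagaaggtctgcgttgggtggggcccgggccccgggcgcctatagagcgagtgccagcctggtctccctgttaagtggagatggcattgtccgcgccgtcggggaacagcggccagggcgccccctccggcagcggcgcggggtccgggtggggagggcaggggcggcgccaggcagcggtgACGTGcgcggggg
Ucp3: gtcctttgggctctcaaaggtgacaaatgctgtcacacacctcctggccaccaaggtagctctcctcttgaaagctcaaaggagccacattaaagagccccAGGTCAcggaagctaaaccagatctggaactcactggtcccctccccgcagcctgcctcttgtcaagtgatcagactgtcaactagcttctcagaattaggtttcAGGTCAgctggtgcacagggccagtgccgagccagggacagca
In the 250 bases before the start, AGGTCA occurred in 9.92% of the 9705 promoters matched to tested coding genes, in 14.9% of 262 promoters of genes that rose by at least 2-fold and in 12.7% of 189 that fell by as much. CATTCC occurred in 10.6%, 14.5% and 8.99% of the same 3 sets. ACGTG, which also lies inside the E-box CACGTG, occurred in 21.9%, 28.2% and 16.9%. GCGTG, the other form of the hypoxia core, occurred in 46.1%, 40.1% and 34.4%, so it was less frequent among the rises than among all promoters. A TATA box (TATAAA) occurred in 6.29%, 13.0% and 10.6%. The CArG box was rarer, at 1.18%, 1.91% and 2.12%, and the MEF2 site was found in 0.474%, 0.763% and 0.529%. All letters were searched on both strands. These shares describe letters in a window and were not tested.

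Other large rises were spread over genes of unlike function. Nppb, the B-type natriuretic peptide, rose by 3.87 and Xirp2 by 3.87 on the log2 scale. Xirp2 stood at 2243, 2469, 2126, 1543 and 1963 in Sham and ran from 15670.1 to 58182 with a median of 29640.5 in nPAB. No library of one group entered the range of the other, and the banded group spread over a wider range than the Sham group. Nmrk2, a muscle kinase that makes the NAD precursor nicotinamide mononucleotide, stood at 244, 509.7, 1069, 572 and 1116 in Sham and ran from 2969.8 to 12817 with a median of 8498 in nPAB (log2 fold change 3.56 ± 0.50 SE, adjusted p = 0.00109). Its Sham libraries differed among themselves by several fold and still all lay below the lowest banded library. Eno2, an enolase best known from neurons, rose by 3.78 (adjusted p = 0.000447). Adamts20, a secreted protease, was almost absent from Sham at 1.06, 1.1, 7.14, 0 and 9.39 and ran from 45.6 to 296 with a median of 138 in nPAB (log2 fold change 5.37 ± 0.59 SE, adjusted p = 2.13e-05). The poly(A) polymerase Tent5b (5.10), the triad-membrane gene Sypl2 (4.97) and the lipoprotein receptor Lrp8 (4.87) rose from Sham means of 11.2, 2.19 and 3.54 normalized counts. Adamts20, Sypl2 and Lrp8 had Sham means under 10 and passed the filter only through the banded group. Lrp8 was highest in nPAB mouse 6, at 425, with the other 5 banded libraries between 44.9 and 148.

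**Figure D2:**
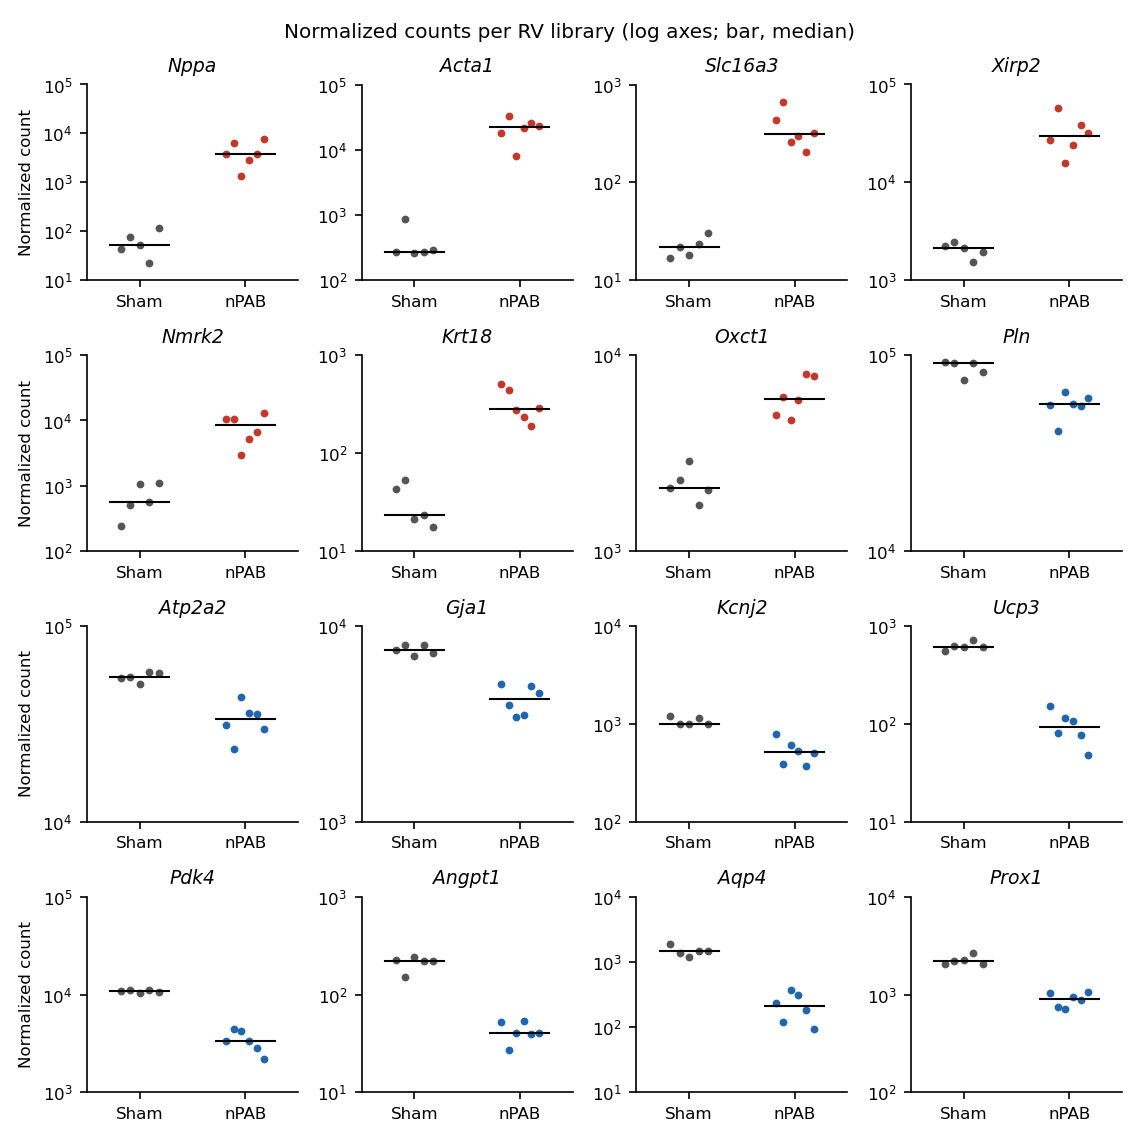
Normalized counts of 16 genes in each RV library (points, log axes, 5 Sham and 6 nPAB, the bar at the median) show the separation of the groups for rises (red) and falls (blue). The groups do not overlap in any of the 16 panels, and Acta1 has 1 Sham library, of mouse 10, above its other 4.

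Deep falls among well-measured genes included genes of fat metabolism, a water channel and some stromal genes. Scd4, a stearoyl-CoA desaturase, stood at 260.2, 675, 552, 688 and 550.5 in Sham and ran from 13 to 155 with a median of 40.2 in nPAB (log2 fold change -3.60 ± 0.64 SE, adjusted p = 0.00321). Ucp3 stood at 557, 630.3, 614, 718 and 610.4 in Sham and ran from 48.2 to 154 with a median of 93.1 in nPAB (log2 fold change -2.77 ± 0.22 SE, adjusted p = 9.09e-07). For both genes all banded libraries lay under all Sham libraries, and for Ucp3 the Sham libraries lay close together. Fbp2, the muscle form of fructose bisphosphatase, fell by 2.22 on the log2 scale and Aldh1l2, a mitochondrial folate enzyme, by 2.17. Lrrc15 (-3.17), Scara5 (-2.27) and Clec3b (-2.12), which stromal cells express, fell too, and so did the integrin chain Itgb6 (-2.15) and Asb15 (-2.31), a muscle ubiquitin ligase adaptor. Angpt1, the ligand that steadies vessels through the receptor Tek, stood at 228, 150.2, 241, 221 and 221 in Sham and ran from 26.9 to 53.7 with a median of 40.2 in nPAB (log2 fold change -2.32 ± 0.20 SE, adjusted p = 7.17e-07).

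Ranked by p rather than size, the leading genes included transcription factors that fell. Sox4, a developmental transcription factor, stood at 1317, 1514, 1279, 1588 and 1383 in Sham and ran from 403 to 656 with a median of 468 in nPAB (log2 fold change -1.52 ± 0.11 SE, adjusted p = 1.75e-07). Prox1, a homeobox factor of lymphatic endothelium that cardiomyocytes also make, stood at 2071, 2214, 2255, 2665 and 2070.5 in Sham and ran from 720.4 to 1053 with a median of 908 in nPAB (log2 fold change -1.34 ± 0.10 SE, adjusted p = 3.38e-07). Both genes fell in every banded library and by similar amounts. Resf1, a silencing factor of retroelements, rose by 1.45 (adjusted p = 3.38e-07) and Dync1li1, a light intermediate chain of the dynein motor, by 1.07 (adjusted p = 4.47e-07). Fam213b, a prostaglandin synthase also named Prxl2b, rose by 1.80 (adjusted p = 4.47e-07). Sorbs2, an adaptor of the Z-disc and intercalated disc, rose by 0.93 (adjusted p = 6.38e-07), from 9374 ± 915 to 17882 ± 1399.9 (SD, n = 5 and 6) normalized counts.

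The largest changes in read number were in abundant muscle genes. The largest gains in mean normalized counts were those of Actc1, the adult cardiac actin, from 120402 ± 17243 to 166314 ± 21086 (SD, n = 5 and 6), and Xirp2, followed by Hspb7, a small heat shock protein of muscle, from 37235 ± 2136 to 62670.3 ± 8594, and Acta1. Ankrd1, a stretch-responsive titin partner, went from 9260.3 ± 2371 to 30255 ± 10929.9, the intermediate filament desmin gene Des from 12363 ± 799.8 to 31216 ± 9819 and its chaperone Cryab from 10685 ± 458 to 19988 ± 4828. Lars2, the mitochondrial leucyl-tRNA synthetase, went from 28501 ± 1602 to 37635 ± 3464, and reads on this gene can include ribosomal RNA of near-identical sequence, so its value is uncertain. Among the named coding genes without overlap, Pln and Atp2a2 lost the most. Pln, phospholamban, the brake of the calcium pump, stood at 92853, 91583, 74327, 90763 and 82017 in Sham and ran from 40817 to 64854 with a median of 56204 in nPAB, and Atp2a2, the pump SERCA2 itself, stood at 54526, 55024, 50346, 58419 and 57269.8 and ran from 23594 to 43192 with a median of 33369.9. Each of these genes was lower in all banded libraries than in any Sham library. Pdk4, which holds back glucose oxidation, went from 10792 ± 367 to 3405 ± 838, Txnip, a brake on glucose uptake, from 7637 ± 884 to 2188 ± 505, and Ech1, a fatty acid oxidation enzyme, from 9975 ± 709 to 6017 ± 1084. Normalized counts are not per length, so these gains and losses rank change in reads and not in molecules.

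The contractile apparatus changed by small steps upward, apart from isoforms of skeletal muscle. Counts of this list and of those below stand beside 11.1% rises and 10.8% falls among all genes tested. Of the contractile and identity genes 9 of 22 tested members rose, 2 fell and 11 did not pass (median log2 fold change 0.18). Actn2, the Z-disc actinin, rose by 0.52 (adjusted p = 6.37e-05), the stretch sensor Csrp3 by 0.80 (adjusted p = 0.0017), the calcineurin-binding Myoz2 by 0.42 (adjusted p = 0.000498) and Actc1 by 0.47 (adjusted p = 0.0023). The falls were the nebulin relative Nebl at -0.28 (adjusted p = 0.0138) and the adult troponin I Tnni3 at -0.26 (adjusted p = 0.0447). Nebl did not pass once a trend with exon length was removed (adjusted p = 0.299) or with no variance trend (0.0549), and Tnni3 did not pass without any 1 Sham mouse or without nPAB mouse 5, 6 or 8. Of 32 genes typical of skeletal or embryonic muscle only 10 reached the filter, of which 6 rose, 1 fell and 3 did not pass. Casq1, the calsequestrin of fast skeletal muscle, stood at 79.7, 151, 116, 95.3 and 159.6 in Sham and ran from 581 to 1865 with a median of 1069 in nPAB (log2 fold change 3.17 ± 0.31 SE, adjusted p = 5.16e-05). Every banded library lay far above every Sham library. Members that passed the filter through the banded group alone had to be higher there, so the count of this list supports nothing. The 1 fall was that of Tnni1, the slow skeletal and fetal troponin I (-0.85, adjusted p = 0.0366), a call that was lost without any 1 Sham mouse, without nPAB mouse 6, 8 or 11 and with library weights.

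The cytoskeleton and its anchors moved upward more often. Of intermediate filament, tubulin and junction genes 12 of 24 tested members rose, 4 fell and 8 did not pass (median 0.40). Des rose by 1.28 (adjusted p = 0.000655), the tubulins Tubb2b by 1.70 (adjusted p = 0.000117) and Tuba1c by 1.46 (adjusted p = 3.64e-05), and Nrap, a scaffold of growing myofibrils, by 0.72 (adjusted p = 2.53e-05). The 4 falls were in adhesion at cell-cell junctions, among them the desmosomal cadherin Dsg2 (-0.83, adjusted p = 6.46e-05), N-cadherin Cdh2 (-0.42, adjusted p = 0.00165) and alpha-T-catenin Ctnna3 (-0.61, adjusted p = 0.00227). Of integrin and focal adhesion genes 8 of 25 tested members rose, 2 fell and 15 did not pass (median 0.18). Itga9 rose by 1.08 (adjusted p = 8.69e-06), the mechanosensitive zyxin gene Zyx by 0.64 (adjusted p = 0.000163) and talin 1 (Tln1) by 0.53 (adjusted p = 0.000253), whereas talin 2 (Tln2) was at -0.43 (adjusted p = 0.00581) and did not pass with the exon-length trend removed (adjusted p = 0.0929). The keratins of simple epithelium, Krt8 and Krt18, rose by 3.79 and 3.35. Krt18 stood at 42.5, 52.6, 21.4, 23.3 and 17.6 in Sham and ran from 190.0 to 507 with a median of 281 in nPAB, with no overlap.

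Genes of the heart's electrical system fell more often than they rose. Of the potassium channel genes 3 of 19 tested members rose, 9 fell and 7 did not pass (median -0.46). Kcnj2, the inward rectifier that sets the resting potential, stood at 1208, 995, 986, 1153 and 1007 in Sham and ran from 369 to 782 with a median of 519 in nPAB (log2 fold change -1.05 ± 0.16 SE, adjusted p = 0.000287). Kcnj5, a subunit of the acetylcholine-gated channel, fell from 1117 ± 144 to 482 ± 121 and Abcc9, the sulfonylurea receptor of the cardiac ATP-sensitive channel, from 11235 ± 839 to 6361 ± 1175. All 3 genes were lower in every banded library. The rises were the tandem-pore channel Kcnk3 (0.57, adjusted p = 0.00107), the subunit Kcne4 (2.17, adjusted p = 0.00286) and Kcna5 (0.71, adjusted p = 0.0242). Kcna5 did not pass without Sham mouse 10, 11 or 13 or nPAB mouse 7, and without nPAB mice 6 and 7 its adjusted p was 0.117. Among sodium, calcium and pacemaker channel and connexin genes 3 of 23 tested members rose, 7 fell and 13 did not pass (median -0.10). Gja1, connexin 43, the main gap junction protein of working muscle, stood at 7520.2, 7980.4, 6986, 7971 and 7251 in Sham and ran from 3419 to 5074 with a median of 4251 in nPAB (log2 fold change -0.85 ± 0.10 SE, adjusted p = 1.28e-05). The L-type calcium channel Cacna1c fell by 0.61 and Scn7a, a sodium-sensing channel relative, by 1.03 on the log2 scale. Piezo1, a stretch-gated channel, rose by 0.51 (adjusted p = 0.00245).

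Calcium handling genes were called in both directions. Of sarcoplasmic reticulum calcium genes 5 of 19 tested members rose, 8 fell and 6 did not pass (median 0.19). Atp2a2 fell by 0.76 and Pln by 0.64 on the log2 scale (adjusted p = 0.000189 and 0.000185), and the IP3 receptor Itpr1 by 0.50 (by 0.33 with the exon-length trend removed). S100a1, a calcium sensor that stimulates the pump and the release channel, rose by 1.59 (adjusted p = 0.00522) although Sham mouse 10, at 4309 against 1262 to 1802 in the other 4, entered the banded range. The luminal calcium binder sarcalumenin (Srl) rose by 0.64 (adjusted p = 3.83e-05) and junctophilin 2 (Jph2), which ties the reticulum to the T-tubule, by 0.42 (adjusted p = 0.00534). With the exon-length trend removed 6 members rose and 5 fell. Of adrenergic, muscarinic and cyclic nucleotide genes 2 of 25 tested members rose, 7 fell and 16 did not pass (median -0.04). Of the receptors for noradrenaline, 2 of the alpha-1 type fell. Adra1b stood at 257, 319, 333, 318 and 323 in Sham and ran from 56.3 to 219.6 with a median of 101 in nPAB (log2 fold change -1.54 ± 0.25 SE, adjusted p = 0.000538), and Adra1a stood at 21.2, 14.3, 27.8, 11.7 and 48.1 and ran from 0 to 3.7 with a median of 1.56 (log2 fold change -3.20 ± 0.58 SE, adjusted p = 0.000714). Adra1a passed the filter only through the Sham group, its banded libraries held very few reads, and its log2 fold change was -2.02 with a pseudocount of 5. The phosphodiesterase Pde3a fell by 0.56, and the kinase subunit Prkar1a rose by 0.62.

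**Figure D3:**
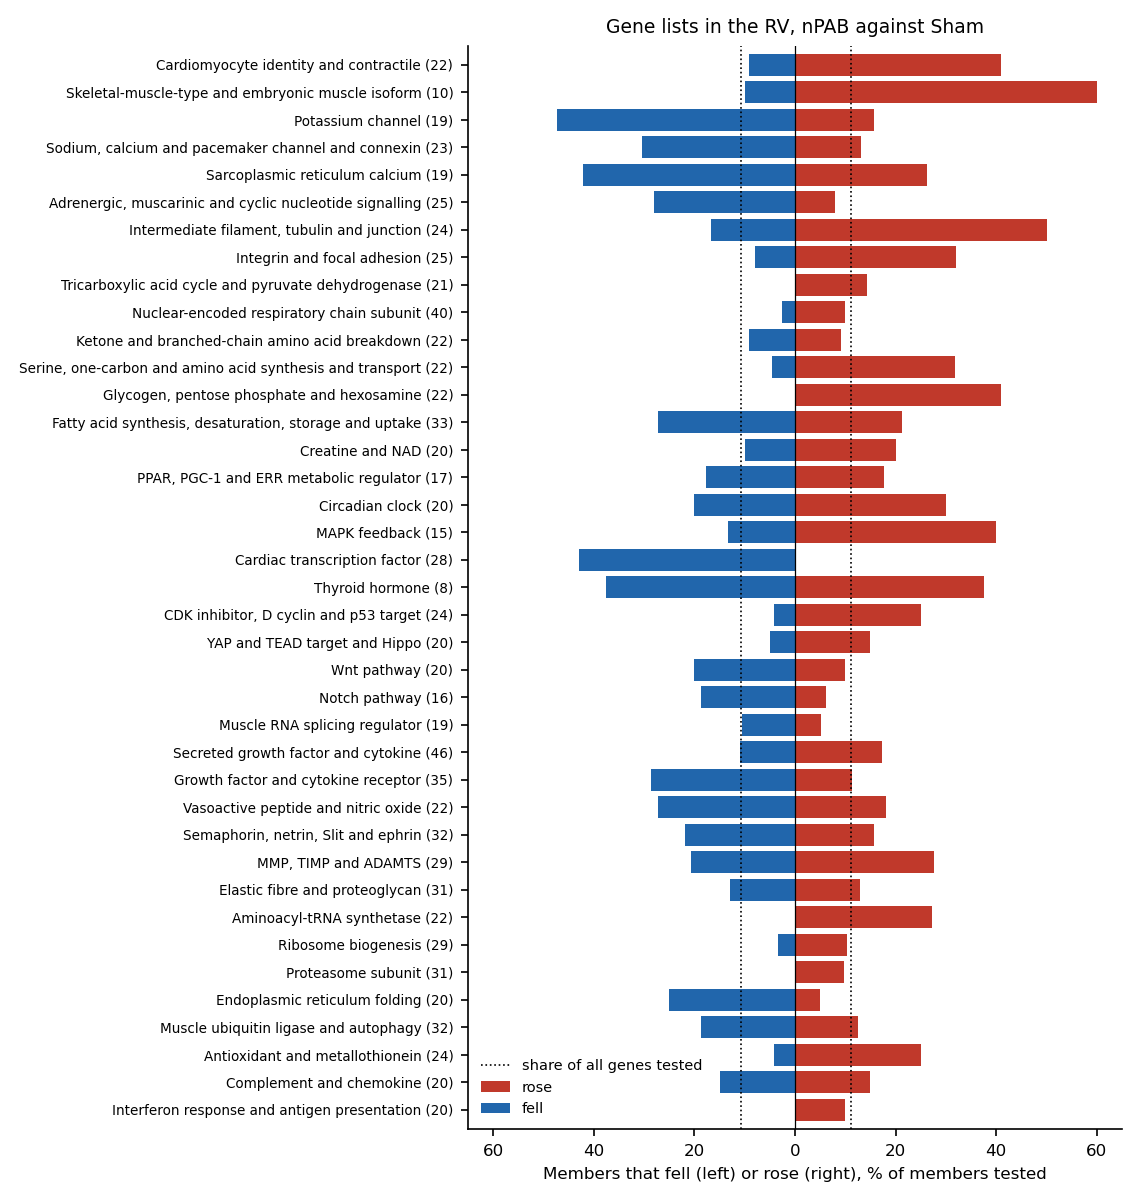
Bars give, for each gene list, the percentage of its tested members (their number in brackets) that rose (right, red) or fell (left, blue) in the banded RV, with dotted lines at the share of all 13660 genes, 11.1% and 10.8%. The intermediate filament list has 12 rises among 24 genes, and the potassium channel (9 of 19), cardiac transcription factor (12 of 28) and sarcoplasmic reticulum (8 of 19) lists reach furthest left.

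In metabolism, a gene of ketone use rose with genes of glycogen and amino acid handling. Oxct1, which activates ketone bodies for oxidation, stood at 2086, 2309, 2889, 1724 and 2048 in Sham and ran from 4689.8 to 7995 with a median of 5984 in nPAB (log2 fold change 1.49 ± 0.16 SE, adjusted p = 2.37e-05). Oxct1 was higher in every banded library than in any Sham library. Bdh1, the dehydrogenase of the same route, rose by 2.82 (adjusted p = 0.00518) from a low level, 2.18 ± 1.71 in Sham and 24.6 ± 18.4 in nPAB. Its groups overlapped, its log2 fold change was 1.81 at a pseudocount of 5, and it passed the filter only through the banded group. Of the whole ketone and branched-chain amino acid list 2 of 22 tested members rose, 2 fell and 18 did not pass, which is near the background share. Ppm1k, the phosphatase that switches branched-chain breakdown on, fell by 0.87 on the log2 scale. Of genes for glycogen, the pentose phosphate path and hexosamines 9 of 22 tested members rose, 0 fell and 13 did not pass (median 0.05). The rises were small, with Gyg, the primer of glycogen, at 0.60 (adjusted p = 0.000103), Ugp2, which makes its sugar donor, at 0.61 (adjusted p = 0.00115) and Pgm2 at 0.69 (adjusted p = 0.00131). Serine, one-carbon and amino acid genes rose in 7 of 22 cases, with 1 fall and 14 that did not pass (median 0.29). Slc7a5, the leucine transporter, rose by 1.68 (adjusted p = 2.13e-05), glutamine synthetase Glul by 1.71 (adjusted p = 0.000844) and the mitochondrial folate enzyme Mthfd1l by 1.83 (adjusted p = 0.0017), and the 1 fall was that of Aldh1l2.

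Fat handling genes were also called in both directions. Of genes of fatty acid synthesis, desaturation, storage and uptake 7 of 33 tested members rose, 9 fell and 17 did not pass (median -0.06). The falls with the smallest p were those of the lipase Lipe (-1.18, adjusted p = 2.96e-05), the droplet coat Plin5 (-0.64, adjusted p = 0.00142) and the transporter Slc27a1 (-0.85, adjusted p = 0.000366). The rises with the smallest p were those of Gpihbp1, which holds lipoprotein lipase on the vessel wall (0.69, adjusted p = 4.57e-05), and the carriers Fabp4 (0.40, adjusted p = 0.00216) and Fabp5 (0.50, adjusted p = 0.00419). The number of rises was 4 without Sham mouse 11, 12 or 13 or nPAB mouse 5 or 7 and 3 without nPAB mouse 8, and these 3 named rises passed each time. For the machinery of the mitochondrion itself the counts depended on the mice in the fit. Of tricarboxylic acid cycle and pyruvate dehydrogenase genes 3 of 21 tested members rose, 0 fell and 18 did not pass (median 0.04). Of nuclear-encoded respiratory chain subunits 4 of 40 tested members rose, 1 fell and 35 did not pass (median 0.08). Among all genes tested 11.1% rose and 10.8% fell. The respiratory chain rises numbered 9 without nPAB mouse 6, 14 without nPAB mice 6 and 7, and 2 without Sham mouse 10, 11 or 13 or nPAB mouse 8, 10 or 11. With the exon-length trend removed 2 respiratory chain genes rose and 3 fell, and 2 and 1 of the tricarboxylic acid cycle list. The tricarboxylic acid cycle rises numbered 6 without nPAB mouse 6 or without both, and 1 without Sham mouse 9, 10, 11 or 13 or nPAB mouse 8, 10 or 11. Cox6a1, the broadly expressed form of a cytochrome oxidase subunit, rose by 0.82 (adjusted p = 1.19e-05) and Ogdh by 0.42 (adjusted p = 0.00213). In the creatine and NAD list 4 of 20 tested members rose, 2 fell and 14 did not pass (median 0.05), with the brain creatine kinase Ckb at 0.81 (adjusted p = 0.00033), the creatine transporter Slc6a8 at 0.69 (adjusted p = 0.000647), the mitochondrial NAD kinase Nadk2 at -0.96 (adjusted p = 0.00108) and the deacetylase Sirt1 at -0.57 (adjusted p = 0.00275).

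Cardiac transcription factor genes fell without a rise among them. In that list 0 of 28 tested members rose, 12 fell and 16 did not pass (median -0.29 against 0.00 for all genes), and 9 fell with the exon-length trend removed. Besides Sox4 and Prox1, Meis1, a homeobox factor known for its part in closing the window of cardiomyocyte division, stood at 374, 396, 372, 453 and 319 in Sham and ran from 153 to 240.3 with a median of 197 in nPAB (log2 fold change -0.94 ± 0.13 SE, adjusted p = 5.42e-05). Banded and sham libraries did not overlap for any of these 3 genes. The thyroid hormone genes, which drive postnatal maturation, moved at several levels of the pathway. Dio2, the deiodinase that makes the active hormone inside the cell, rose by 1.54 (adjusted p = 6.73e-05), while the receptors Thrb (-1.30, adjusted p = 0.000257) and Thra (-0.30, adjusted p = 0.00911) and the hormone carrier Slc16a10 (-0.79, adjusted p = 6.76e-05) fell. Of the 8 tested members of this list 3 rose, 3 fell and 2 did not pass. The other rises were those of Klf9 by 0.53 (adjusted p = 0.00351) and Hr by 1.23 (adjusted p = 0.0104), the latter not without nPAB mice 6 and 7 (adjusted p = 0.0607). Among 17 metabolic regulators of the PPAR, PGC-1 and ERR group 3 rose and 3 fell. Klf15, a glucocorticoid-responsive regulator of amino acid and fat use, rose by 1.33 (adjusted p = 0.000194) and the adipogenic receptor Pparg by 1.11 (adjusted p = 0.00037), and the retinoid receptor Rxra fell by 0.44 on the log2 scale.

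Clock genes changed on both sides. Of 20 tested 6 rose, 4 fell and 10 did not pass (median -0.17), and 2 fell without Sham mouse 10 or nPAB mouse 5. Per1, a repressor of the clock, stood at 114, 58.1, 84.9, 93.4 and 48.1 in Sham and ran from 188 to 388 with a median of 315 in nPAB (log2 fold change 1.96 ± 0.23 SE, adjusted p = 1.63e-05). Noct, a clock-linked phosphatase of NADPH, rose by 1.93 (adjusted p = 4.46e-06) and Bhlhe40 by 1.69 (adjusted p = 2.42e-06), while Nfil3 fell by 0.72 on the log2 scale. Each of these 4 genes had separate groups. The hour at which the hearts were taken is not given in the labels, so its part in these values was not tested. Feedback genes of the MAPK cascade rose in 6 of 15 cases, 2 fell and 7 did not pass, with 1 fall without Sham mouse 10, 11 or 12 or nPAB mouse 5, 6 or 10. The rises included Dusp1 (0.65, adjusted p = 0.00168), Dusp6 (0.58, adjusted p = 0.00152) and the ERBB inhibitor Errfi1 (0.88, adjusted p = 0.00631), and Dusp10 fell (-1.11, adjusted p = 0.00269). Of inhibitors of cyclin-dependent kinases, D cyclins and p53 targets 6 of 24 tested members rose, 1 fell and 17 did not pass (median 0.26), and 2 rose without Sham mouse 12 and 3 without nPAB mouse 8 or without nPAB mice 6 and 7. Cdkn1a, the p21 inhibitor, rose by 1.09 (adjusted p = 0.000117) while Cdkn1b, the p27 inhibitor, fell (-0.82, adjusted p = 0.00107). In the Wnt list 2 of 20 tested members rose, 4 fell and 14 did not pass (median -0.23), beside 11.1% and 10.8% of all genes. The receptors Fzd1 (-0.55, adjusted p = 0.000971) and Lrp6 (-0.40, adjusted p = 0.00157, and -0.26 with the exon-length trend removed) were lower. The secreted Dkk3 (1.06, adjusted p = 0.0144) was higher. Muscle splicing regulators were near the background, with 1 rise, 2 falls and 16 that did not pass among 19 tested (median -0.07), and 0 to 2 rises without 1 mouse. The 2 falls were those of Rbfox1 and Rbm20. Rbfox1, a splicing regulator of heart and brain, stood at 456, 448, 302, 476 and 429.6 in Sham and ran from 65.9 to 210.3 with a median of 139 in nPAB (log2 fold change -1.75 ± 0.24 SE, adjusted p = 0.000124), and Rbm20, the titin splicing factor, fell by 0.39.

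Of 46 growth factor and cytokine genes tested 8 rose, 5 fell and 33 did not pass (median 0.20), with a share of falls near the 10.8% of all genes. Hbegf, a ligand of the EGF receptor, rose by 1.65 (adjusted p = 0.00202) and Fstl3, an activin binder, by 1.95 (adjusted p = 0.00195). Fgf9, a ligand of coronary growth, stood at 152, 212, 203, 194 and 196 in Sham and ran from 32.1 to 80 with a median of 63.1 in nPAB (log2 fold change -1.72 ± 0.21 SE, adjusted p = 2.05e-05), and Angpt1 fell as given above. Fgf6, a muscle growth factor, stood at 0, 8.77, 0.794, 0 and 0 in Sham and ran from 9.31 to 87 with a median of 19.2 in nPAB (3.82, adjusted p = 0.000832), with a log2 fold change of 2.24 at a pseudocount of 5. Of 35 receptor genes 4 rose, 10 fell and 21 did not pass (median -0.05), with 6 falls without Sham mouse 12. Erbb4, the neuregulin receptor of cardiomyocytes, stood at 1011, 769.5, 813, 881 and 887 in Sham and ran from 337 to 539 with a median of 459 in nPAB (log2 fold change -0.96 ± 0.12 SE, adjusted p = 1.96e-05). Kit (-1.05, adjusted p = 0.000832) and the TGF-beta co-receptor Tgfbr3 (-0.98, adjusted p = 0.000167) fell, and so did Tek (-0.68, adjusted p = 0.0115), the receptor of Angpt1. Fgfr3 rose by 2.01 (adjusted p = 0.000189), the VEGF receptor Flt1 by 0.76 (adjusted p = 0.000375) and the oncostatin receptor Osmr by 0.81 (adjusted p = 0.000662).

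Among vasoactive genes, endothelin 3 rose and the apelin and angiotensin receptors fell. The list held 4 rises, 6 falls and 12 genes that did not pass among 22 tested (median -0.04), beside 11.1% and 10.8% of all genes. Edn3, a vasoconstrictor peptide, stood at 0, 7.67, 2.38, 0 and 0 in Sham and ran from 22.3 to 93 with a median of 55.7 in nPAB (log2 fold change 4.75 ± 0.58 SE, adjusted p = 1.96e-05). Aplnr, the apelin receptor, stood at 727, 864, 791, 701 and 588 in Sham and ran from 297 to 382 with a median of 361 in nPAB (log2 fold change -1.07 ± 0.11 SE, adjusted p = 3.49e-06). Neither gene had overlapping groups. With a pseudocount of 5 the log2 fold change of Edn3 was 3.14, and Edn3, like Fgf6 above, passed the filter only through the banded group. Agtr1a, the main angiotensin II receptor, fell by 0.81 on the log2 scale (adjusted p = 0.000216), whereas the converting enzyme Ace rose by 1.28 (adjusted p = 0.0108). The receptor partners Ramp3 and Ramp1, which set the peptide that a receptor answers to, went in opposite directions, at 2.33 (adjusted p = 0.000753) and -1.27 (adjusted p = 0.000814). Of guidance genes, the semaphorins, netrins, Slits and ephrins, 5 of 32 tested members rose, 7 fell and 20 did not pass (median -0.14). These counts stand beside 11.1% rises and 10.8% falls among all genes. There were 3 rises without Sham mouse 11 and 4 falls with the exon-length trend removed. Epha4 (-0.93, adjusted p = 3.83e-05), Epha7 (-1.17, adjusted p = 6.46e-05) and netrin 1, Ntn1 (-0.69, adjusted p = 0.000194), were lower, and Sema3b (0.93, adjusted p = 0.00208) and Plxna4 (0.42, adjusted p = 0.00117) higher.

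Matrix-cutting enzymes and their inhibitors changed individually. Of 29 tested 8 rose, 6 fell and 15 did not pass (median -0.05). The inhibitor Timp1 rose by 1.06 (adjusted p = 5.62e-05) and Adamts8 by 1.67 (adjusted p = 0.00024), next to Adamts20, while the membrane protease Mmp16 stood at 275, 287, 229, 214 and 181 in Sham and ran from 60.7 to 116 with a median of 75.7 in nPAB (log2 fold change -1.56 ± 0.18 SE, adjusted p = 1.08e-05). Adamts7 (-1.19, adjusted p = 0.00164) and Adamts12 (-0.77, adjusted p = 0.00311) fell as well. Elastic fibre and proteoglycan genes were near the background, with 4 rises and 4 falls among 31, and with 2 rises without Sham mouse 13 or nPAB mouse 6 or 11, and without nPAB mice 6 and 7. The proteoglycan Bgn rose by 0.79 (adjusted p = 0.000549) and the fibulin Fbln1 fell by 0.80. Col3a1, the type III collagen, went from 31496 ± 4205 to 21311 ± 2968 normalized counts (-0.56, adjusted p = 0.000726).

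Aminoacyl-tRNA synthetase genes rose where they changed, and of the folding genes of the endoplasmic reticulum that changed all but 1 fell. Of 22 aminoacyl-tRNA synthetase genes 6 rose, 0 fell and 16 did not pass (median 0.28). They included Eprs (0.36, adjusted p = 0.00318), Gars (0.38, adjusted p = 0.00768) and Aimp2 (0.56, adjusted p = 0.0102), and 3 rose without Sham mouse 9 or nPAB mouse 10. Ribosome biogenesis genes were near the background for rises, with 3 rises, 1 fall and 25 that did not pass among 29 tested (median 0.11). The fall was lost without Sham mouse 10 or 13 and with the exon-length trend removed. Among the rises was that of Rrp12, an exporter of ribosomal subunits, by 1.65 (adjusted p = 1.14e-05). Of endoplasmic reticulum folding genes 1 of 20 tested members rose, 5 fell and 14 did not pass (median -0.22), among the falls Hspa5 (-0.37, adjusted p = 0.00439), calreticulin Calr (-0.45, adjusted p = 0.00617) and calnexin Canx (-0.27, adjusted p = 0.00698), and the rise was that of P4hb (0.49, adjusted p = 0.00231). In the list of muscle ubiquitin ligases and autophagy genes 4 of 32 tested members rose, 6 fell and 22 did not pass (median -0.01). Among all genes tested 11.1% rose and 10.8% fell. Asb14 (-1.14, adjusted p = 0.000366) and Klhl38 (-2.02, adjusted p = 0.00165) fell with Asb15, while Fbxo40 (0.79, adjusted p = 0.000415) and Trim54 (1.09, adjusted p = 0.00374) rose. Antioxidant and metallothionein genes rose in 6 of 24 cases, 1 fell and 17 did not pass, with 2 falls without Sham mouse 9 or nPAB mouse 5 or 10. Gpx3, a secreted peroxidase, stood at 1484, 1259.5, 1330.4, 1212 and 909.7 in Sham and ran from 2586 to 7064 with a median of 4171 in nPAB (log2 fold change 1.79 ± 0.25 SE, adjusted p = 0.000691). Mt2 rose by 3.18 (adjusted p = 0.000703), and reads of the near-identical metallothionein genes may have been shared in counting, so its value is uncertain.

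Markers of other cell types moved in part with the groups, and their part in the results above was not tested. Endothelial markers summed to 16779 to 19489 normalized counts per library in Sham and 16928 to 20346 in nPAB. Among these 16 markers 4 rose and 1 fell (median 0.21), beside 11.1% and 10.8% of all genes. There were 2 rises without Sham mouse 11 or without nPAB mice 6 and 7. The 15 resident fibroblast markers summed to 69600 to 92327 in Sham and 49138 to 74039 in nPAB (2 rose, 4 fell and 9 did not pass). The rises were those of Pi16 (0.97, adjusted p = 0.00342) and Meox1 (1.04, adjusted p = 0.000549), and the falls included Col3a1 and Fbln1. Pericyte and smooth muscle markers summed to 34420 to 40466 and 29319 to 35342, where 4 of 15 rose and 2 fell. Abcc9, named above as a gene of the cardiac ATP-sensitive channel, was among these falls. In Sham it held 9762 (mouse 11) and 11461 to 11870 (the others) of these counts. The sum was not taken without Abcc9, so it does not show fewer pericytes or smooth muscle cells. The 7 lymphatic markers summed to 2717 to 3610 in Sham and 1562 to 2064 in nPAB, without overlap, but the 6 markers other than Prox1 summed to 647 to 963 in Sham and 686 to 1245 in nPAB. In that list Ccl21a was listed at 0 in every RV library, Prox1 was the 1 member that fell, with 2 falls without nPAB mouse 6 or 11, and Flt4 was at 0.46 (adjusted p = 0.0103), which did not pass without nPAB mice 6 and 7 (adjusted p = 0.0585). The epicardial sum ranged from 1085 to 1830 and from 1736 to 2131, with Krt8 and Krt18 as the 2 rises among 12 tested members and Aldh1a2 as the fall (-0.61, adjusted p = 0.00128). Krt8 and Krt18, which rose by 3.79 and 3.35 on the log2 scale, are part of this sum, which was not taken without them. The macrophage sum ranged from 1427 to 2554 and from 1405 to 2180. Of 15 tested macrophage markers 0 rose, 2 fell and 13 did not pass (median -0.09), beside 11.1% and 10.8% of all genes. Without 1 mouse 0 to 1 rose and 1 to 2 fell. Ccr2, of monocyte-derived cells, was among the falls (-1.41, adjusted p = 0.00456), highest in Sham mouse 13. The erythroid sum ranged from 9187 to 14654 and from 9933 to 16840.

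Atrial tissue and nerve showed wider differences between libraries. The 12 atrial markers other than Nppa summed to 1113 to 3721 normalized counts in Sham and 1692 to 11865 in nPAB, with a median of 3030 and 4643. Nppa, which atrial muscle makes in quantity, was highest in nPAB mice 11 (7827) and 6 (6455), the libraries whose atrial sums were also the highest (8187 and 11865). The part of atrial tissue in the Nppa values was not tested. Of the 11 tested atrial markers 2 rose, 1 fell and 8 did not pass, the fall being that of the nuclear receptor Nr2f1 (-1.31, adjusted p = 0.00596). The 2 rises were those of Dkk3 and Kcna5, given above among the Wnt and potassium channel genes. The part of atrial tissue in their values was not tested either. The rises numbered 1 without Sham mouse 10, 11 or 13, without nPAB mouse 7 and without nPAB mice 6 and 7, and the falls 2 without Sham mouse 10. Nerve and Schwann markers summed to 286 to 371 in Sham and 343 to 626 in nPAB. In that list Uchl1 rose by 1.52 (adjusted p = 0.000222) and Stmn2, also a gene of arterial and venous endothelium in the lists used here, by 1.51 (adjusted p = 0.000271). Dbh, the enzyme of noradrenaline synthesis, stood at 114, 87.7, 85.7, 95.3 and 149 in Sham and ran from 25.8 to 48.4 with a median of 37.1 in nPAB (log2 fold change -1.52 ± 0.23 SE, adjusted p = 0.000116). The fat cell markers Lep, Cidec and Retn were listed at 0 in every library.

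Unspliced and intronic transcripts fell far more often than they rose, while the calls in other noncoding classes did not share one direction. Of 222 tested genes in the TEC class of GENCODE, unspliced loci supported by little evidence, 65 fell (29.3%) and 1 rose, with a median log2 fold change of -0.86. Of 26 sense-intronic transcripts 12 fell and 0 rose (median -0.90), and of 162 lincRNA genes 20 fell and 11 rose. Of 162 antisense genes 13 fell and 16 rose, and of 446 processed pseudogenes, whose reads may belong to their parent genes, 3 fell and 24 rose. The share of reads on TEC genes was 0.125% to 0.165% in Sham and 0.0674% to 0.0993% in nPAB, without overlap. Sense-intronic genes took 0.0169% to 0.0208% and 0.00852% to 0.0117%. The same 2 shares in the LV were 0.120% to 0.146% against 0.0912% to 0.114% and 0.0141% to 0.0190% against 0.0105% to 0.0134%, again without overlap. Lower read shares in the banded RV were not particular to these classes. There lincRNA genes took 0.541% to 0.602% in Sham and 0.341% to 0.475% in nPAB. Antisense genes took 0.149% to 0.154% and 0.127% to 0.137%, also without overlap. In the LV the lincRNA and antisense shares overlapped, as did those of processed pseudogenes in both ventricles. Malat1, a long RNA kept in the nucleus, stood at 22243, 24375, 20276, 19333 and 19588 in Sham and ran from 8940.0 to 13933 with a median of 11781 in nPAB (log2 fold change -0.87 ± 0.10 SE, adjusted p = 7.26e-06). Kcnq1ot1, an imprinted nuclear RNA, was at -0.74 (adjusted p = 0.0133) and did not pass with the exon-length trend removed (adjusted p = 0.0993).

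Among long RNAs with a mean of at least 50, the one that rose most, 4833412C05Rik, stood at 5.31, 3.29, 27, 0.973 and 9.39 in Sham and ran from 76.4 to 668 with a median of 305 in nPAB (log2 fold change 5.04 ± 0.75 SE, adjusted p = 0.000866). The Sham mean of 4833412C05Rik was under 10, so it passed the filter only through the banded group. Its gene lies at chromosome 7, 67784538 to 67804139 in mm10. Gm45670 rose by 2.12 (adjusted p = 0.000403), and 4632427E13Rik fell (-1.25, adjusted p = 0.000151), highest in Sham mouse 12 at 287 against 168 to 197 in the other 4.

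Length went with direction. In 5 equal bins of the 12342 coding genes by exon length, the share that fell went from 5.27% in the shortest bin to 20.7% in the longest, and the share that rose went from 15.0% to 9.19%. By the genomic span of the gene the falls went from 5.47% in the shortest bin to 20.3% in the longest and the rises from 14.4% to 11.1%. After a smooth trend with exon length was taken out of every library, an alternative added after the data were seen, the falls in the shortest and longest bins by exon length were 7.29% and 11.2% and the rises 10.1% and 14.0%. In that fit 1470 genes rose and 1256 fell over the whole table. The part of RNA quality in these shares was not tested. In that fit 3 of the potassium channel genes rose and 8 fell, against 3 and 9. Of the receptor genes 5 rose and 7 fell, against 4 and 10, and of the integrin and focal adhesion genes 9 rose and 1 fell, against 8 and 2.

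**Figure D4:**
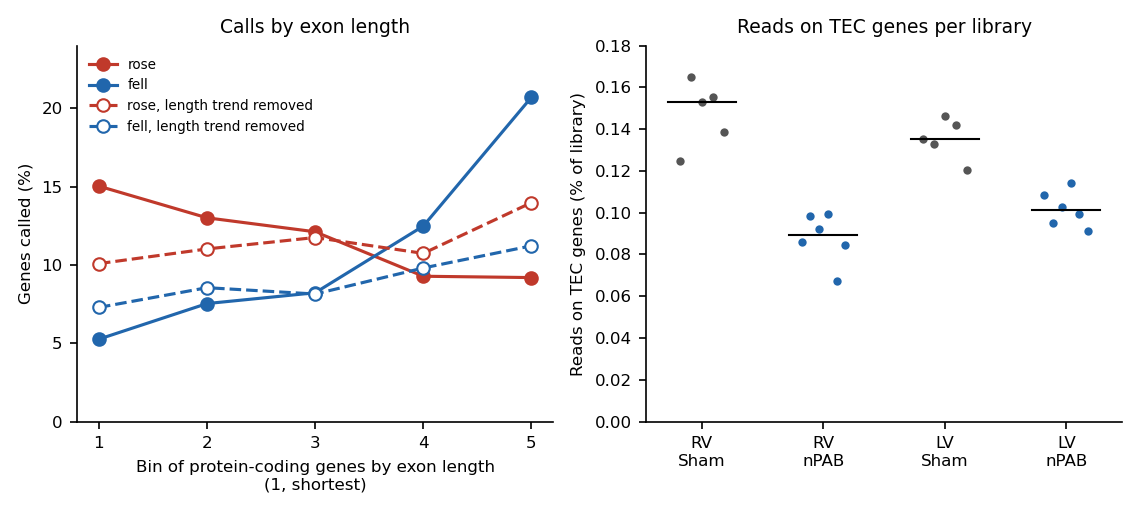
The left panel gives the percentage of coding genes that rose (red) or fell (blue) in each of 5 bins by exon length, as tested (solid) and with the exon-length trend removed (dashed): falls climb from 5.27% to 20.7% as tested and from 7.29% to 11.2% with it removed. The right panel gives the percentage of each library's reads on TEC genes (points, the bar at the median), where banded libraries lie under the Sham libraries in both ventricles.

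The same banding was also read in the left ventricle (LV) of these mice, which gives the values that show where the RV differs. In the LV 644 genes rose (4.76%) and 616 fell (4.55%) of 13528 tested (9.31% called). Of 1500 RV rises tested in both ventricles 519 also rose in the LV, which is 34.6% of the RV rises and 80.6% of the LV rises, and of 1455 RV falls 442 also fell, 30.4% and 71.9%. None of these RV calls was called the opposite way in the LV, and both ventricles came from the same mice. The RV rises of at least 2-fold had a median log2 fold change of 1.46 in the RV and 0.90 in the LV, and the falls -1.44 and -0.81. These genes were picked in the RV, which favours larger values there.

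A direct test of the difference, RV effect minus LV effect within a mouse, called 1 of 13364 genes (0.00748%) with limma, while 1474 had an unadjusted p under 0.05 and 25 an adjusted p under 0.1. The 1 gene was Aqp4, the water channel aquaporin 4 (ENSMUSG00000024411). This test pairs the RV and LV of a mouse by its number, which the sexes contradict for nPAB mice 6 and 7, and without them 29 genes were called. In the RV Aqp4 stood at 1866, 1365, 1206, 1452 and 1472 in Sham and ran from 93.1 to 367 with a median of 209 in nPAB (log2 fold change -2.90 ± 0.34 SE, adjusted p = 0.00024). In the LV its log2 fold change was -0.21 (adjusted p = 0.566), and the difference was -2.68 ± 0.32 SE, adjusted p = 0.0497. Aqp4 thus fell in the RV and did not pass in the LV. The call on the difference was lost without any 1 Sham mouse and without nPAB mouse 5, 8 or 10, where 0 genes were called, and also with sex as a covariate or a pseudocount of 0.5, so it lies at the edge of the threshold. Without nPAB mouse 6 the test called 11 genes and without nPAB mouse 7 it called 20. Xirp2 rose by 3.87 in the RV and 1.52 in the LV, a difference of 2.36 ± 0.32 SE, adjusted p = 0.0535, which did not pass. Scara5 was at -2.27 and -0.20 and Thrb at -1.30 and 0.04, and these differences did not pass either (adjusted p = 0.349 and 0.0705). Pdk4, by contrast, fell by 1.70 in the RV and 1.69 in the LV, with a difference of -0.01 ± 0.10 SE, adjusted p = 0.986, and Noct rose by 1.93 and 2.18.

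**Figure D5:**
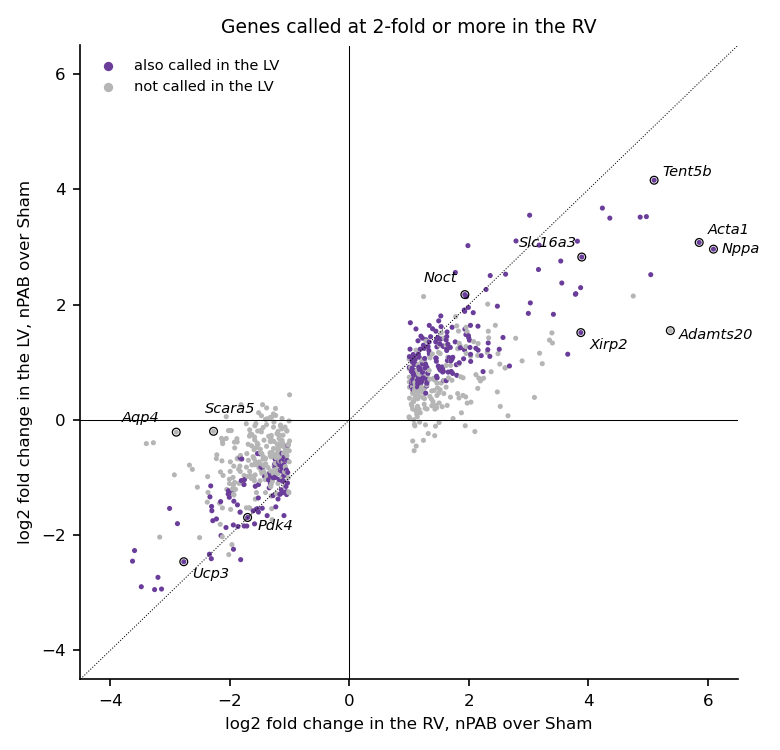
Each point is a gene called at 2-fold or more in the RV, placed by its log2 fold change in the RV (horizontal) and in the LV (vertical), purple where it was also called in the LV, with the dotted line marking equal change. Most points lie on the same side of 0 in both ventricles and nearer to 0 in the LV, while Aqp4 lies at -2.90 in the RV and -0.21 in the LV.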

How the data were processed

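Bulk RNA of the RV and LV of 6 banded and 5 sham-operated mice was sequenced. The deposited values are a signal per gene, normalized counts that the authors made by dividing gene counts by a DESeq2 size factor, separately for each ventricle, per the labels. Cutadapt, featureCounts, DESeq2 and the mm10 build are named in the submitters' processing notes. The sources used here give no aligner, strand setting or annotation release, so reads of overlapping, antisense or near-identical genes cannot be told apart. A library's values were 100% whole multiples (within 0.001) of what 1 read is worth, which gave back its reads and depth.

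Groups were taken from the labels. For the RV, log2(value + 1) of genes with a mean of at least 10 was tested with limma 3.58.1 in R 4.3.3 (variance trend, robust option, 5 Sham against 6 nPAB, no covariate) with Benjamini-Hochberg adjustment over all genes tested and a threshold of 0.05. Fold changes are therefore on the log2(value + 1) scale, and errors of means are SD over 5 Sham and 6 nPAB libraries. edgeR 4.0.16 (quasi-likelihood test) and DESeq2 1.42.0 on the recovered reads were alternatives and called 1461 rises and 1512 falls, and 1674 and 1680. The LV was fitted likewise, and the RV effect minus the LV effect was tested on each mouse's difference. The difference test takes its pairing from the mouse numbers in the labels. Deviations of the 2 ventricles of a mouse from their group means correlated at 0.132 to 0.383, except in nPAB mouse 7 (0.0548).

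The genes and gene lists were chosen with earlier results of these data known. Named genes were called, had groups without overlap, a mean of at least 50 and a coding biotype: the 12 largest rises and falls, the 8 smallest p and the 8 largest gains and losses of counts. To these were added 4 long noncoding RNAs in each direction, Nppa, Acta1 and Slc16a3, up to 3 called members per direction of each list (whatever their overlap), and up to 4 genes per direction for the RV-LV difference. Symbols came from the GENCODE annotation, which matched 49411 of 49670 RV gene IDs, and promoters from RefSeq (GRCm38.p6), which matched 9705 of 12342 tested coding genes. A few genes picked this way are not reported here. The fits were tested on simulated data. Alternatives covered the pseudocount, the filter, scaling, library weights, sex, left-out mice, the replicate block and an exon-length trend.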

Additional observations from a re-analysis of the deposited data

Results flagged for a closer look

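In 21 of 360 groups of values (180 named genes in 2 groups of RV libraries) 1 library stood apart from the others by Dixon's test, and chance flags about 1 in 20 groups. In Sham mouse 10, Acta1 (853 normalized counts), S100a1 (4309) and Fgf6 (8.77) were high and Angpt1 (150.2) was low. In Sham mouse 11, Abcc9 (9762) and Rbfox1 (302) were low. Adra1b was low in Sham mouse 9 (257), 4632427E13Rik high in Sham mouse 12 (287) and Ccr2 high in Sham mouse 13 (184).

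Among banded libraries, mouse 6 was high for Lrp8 (425), Kcne4 (176), Mthfd1l (101) and Bhlhe40 (1015). Mouse 10 was high for Itga9 (5451), Fam213b (732) and Tubb2b (307) and low for Tek (496). Clec3b was high in mouse 7 (79.1), against 9.16 to 22.4 in the other 5. Rxra was high in mouse 5 (414), Dusp6 low in mouse 8 (237) and Fabp4 high in mouse 11 (9412).

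The banding effect on Aqp4 differed between the ventricles in the limma test of the difference, with an RV effect minus LV effect of -2.68 on the log2 scale (adjusted p = 0.0497), a call that did not hold without any 1 Sham mouse.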

How the results depend on the processing

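The RV call count of 2999 stayed within 1.5 times under every alternative run but the replicate block, and leaving out 1 mouse at a time gave 2399 to 3015. Of the 180 named genes 172 were called in every alternative but that block in which they were tested. With the replicate block 262 RV genes were called (173 rose, 89 fell), 29 LV genes and 73 of the 180. The numbers do not pair banded with sham mice: only 10 and 11 occur in both groups, for different animals, and their deviations in the RV correlated at -0.0576 and -0.0771. The LV count of 1260 was 739 with no variance trend or robust option and 668 without nPAB mice 6 and 7. The RV minus LV test, which called 1 gene, called 0 with a pseudocount of 0.5 and 0 with a sex covariate, 35 with a filter at a mean of 50, 9 with library weights, 8 with the exon-length trend removed, 29 without nPAB mice 6 and 7, 5 with no replicate block, and 0 to 20 without 1 mouse. The cause was not tested. At 7.43 to 10.7 M reads, genes near a mean of 10 rest on few reads per library.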
